A study of Mus musculus with 48 samples.

Results

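Gm10800, Gm10801 and Gm26870 are 3 predicted mouse genes of the 48440 rows in a gene-wise read count table of the hippocampus. Each name matched 1 row. They were selected on their counts, which scatter strongly between libraries of the same group, so that this scatter is described here and not tested. Nearly all of their reads lay in the same 5 of 48 libraries, which came from 3 groups and both labelled genotypes. In these 5 libraries, reads of all 3 genes were present together, in the order Gm26870, Gm10801, Gm10800. In the other 43, no library had more than 3 reads of Gm10800 or Gm10801, and Gm26870 had 4 to 26 reads in 4 of them and at most 3 in the rest.

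The animals were 3-month-old female mice with 5-Htt+/+ or 5-Htt+/- in the label, C57BL/6 by the labels and of C57BL6/J parents by the study's methods. 5-Htt (gene symbol Slc6a4) encodes the serotonin transporter, and the 5-Htt+/- mice carry 1 inactivated copy in all tissues. Stressed offspring came from dams held in restraint 3 times a day between embryonic days 13 and 17, and the study divided them by their behaviour in a sociability test into mice whose social behaviour was affected (SA) and mice in which it was not (SU). Control (C) offspring came from undisturbed dams. The groups held 8 C, 8 SA and 8 SU libraries labelled 5-Htt+/+ and 7 C, 8 SA and 9 SU libraries labelled 5-Htt+/-. Each library came from 1 mouse and from both hippocampi, and the labels do not give the litter.

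Mouse chromosomes carry long tandem arrays of satellite DNA beside the centromere, the most abundant of which is the major satellite. These arrays are packed into heterochromatin and are transcribed at a low level in most adult cells. Several predicted genes in the mouse annotation lie within copies of such repeats, at the ends of chromosomes and at scattered sites within them. A short read from a repeat can match many copies equally well.

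In the GRCm38 assembly, Gm10801 (chr2:98662237-98664083, plus strand) and Gm10800 (chr2:98666547-98667301, minus strand) are neighbours on chromosome 2, both annotated as protein coding. Gm26870 (chr9:3000282-3038313, minus strand) is annotated as a long intergenic non-coding RNA at the start of the assembled part of chromosome 9. The GENCODE vM21 annotation gives Gm10801 1 transcript of 504 bases in 4 exons, Gm10800 1 transcript of 660 bases in 5 exons, and Gm26870 3 transcripts of 1143 to 1170 bases in 9 exons. The bases were 63.8% to 65.7% A or T. The 3 genes hold copies of 1 repeat, shown here as a stretch of 196 bases from the longest exon of each gene. Capitals mark the 51 bases that are the same in all 3, a run longer than the 50-base reads. The Gm26870 stretch is printed on the plus strand, opposite to the gene, and those of Gm10801 and Gm10800 are in the sense of their transcripts.
Gm10801, chr2:98662315-98662510, plus strand: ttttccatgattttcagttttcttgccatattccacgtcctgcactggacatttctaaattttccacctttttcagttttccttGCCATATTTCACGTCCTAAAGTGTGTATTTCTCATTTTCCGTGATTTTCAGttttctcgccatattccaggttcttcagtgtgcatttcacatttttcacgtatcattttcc
Gm10800, chr2:98666845-98667040, minus strand: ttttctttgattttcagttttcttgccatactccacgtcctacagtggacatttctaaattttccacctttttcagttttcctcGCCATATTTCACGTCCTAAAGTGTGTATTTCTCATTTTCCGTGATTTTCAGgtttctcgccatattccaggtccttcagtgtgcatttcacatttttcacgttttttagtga
Gm26870, chr9:3037823-3038018, plus strand: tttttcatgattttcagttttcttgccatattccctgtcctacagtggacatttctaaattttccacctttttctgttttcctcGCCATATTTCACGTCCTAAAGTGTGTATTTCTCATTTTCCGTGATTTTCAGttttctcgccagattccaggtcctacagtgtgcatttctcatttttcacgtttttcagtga

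The Gm10801 and Gm10800 stretches were identical at 181 of 196 positions (92.3%), Gm10801 and Gm26870 at 177 (90.3%), and Gm10800 and Gm26870 at 184 (93.9%). At 173 positions all 3 had the same base. The unit of the repeat could be read from Gm26870-202, 1 of the 3 transcripts of that gene. Laid over itself, it matched at 95.9% of bases at an offset of 234, and at 95.6%, 95.5% and 96.1% at offsets of 468, 702 and 936. This period is the unit length known for the mouse major satellite. Gm26870-201 and Gm26870-203 matched less at an offset of 234, at 81.5% and 78.3% of bases. The transcripts of Gm10800 and Gm10801 join shorter exons and had no such match at 234 bases (43% and 36.7%). The best match of Gm10801 was 89.4%, at an offset of 400 with 104 bases compared.

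**Figure D1:**
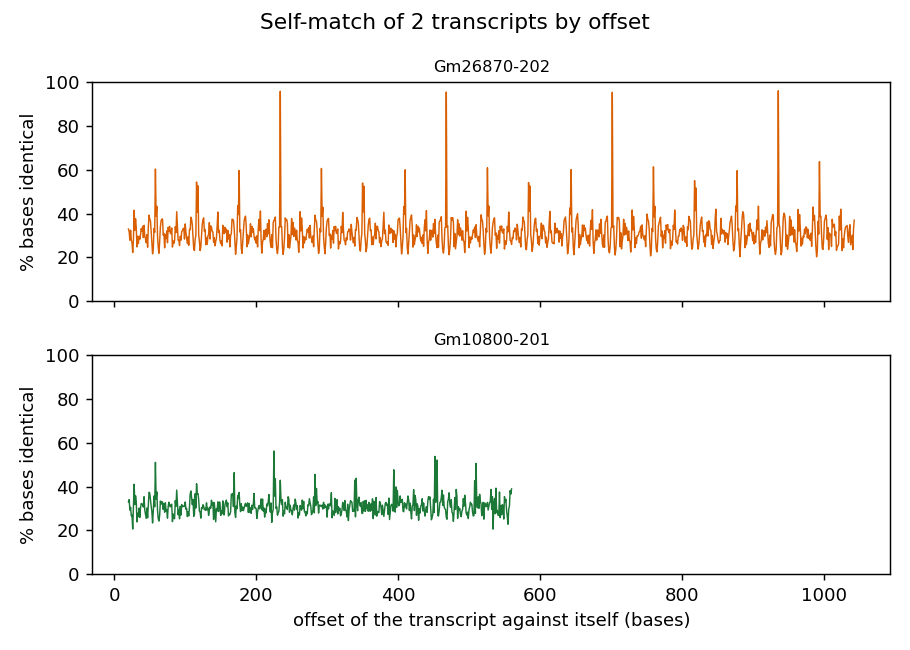
Percentage of bases that are identical (vertical axis) when a transcript is laid over itself at each offset in bases (horizontal axis), for Gm26870-202 and Gm10800-201. Gm26870-202 has peaks above 90% at offsets of 234, 468, 702 and 936 bases, and Gm10800-201 reaches at most 56.3%, at an offset of 225.

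Reads of 50 bases can therefore be shared among the 3 genes and with other copies. Of the different 50-base windows of the Gm10800 transcript, 23.3% also occur, on either strand, in Gm10801 or Gm26870. For Gm10801 this share was 14.9%, and for Gm26870 6.02%. Windows found in other annotated genes made up 19.6% for Gm10800, 7.25% for Gm10801 and 67% for Gm26870. These other genes were the same kind of predicted gene: 10 genes share at least 1 window with a member, 9 of which lie on the plus strand over the span of Gm26870, and the other is Gm21738 on chromosome 14. Of the exon bases of Gm26870, 54.6% lie inside exons of those plus-strand genes. The copies outside annotated genes were not searched, since no genome sequence was used here, so the gene to which a read was counted is uncertain for all 3.

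Total counts per library ranged from 16488405 to 38213754, so that 3 reads, the number that a count of 0 allows, correspond to 0.0785 to 0.182 CPM, the read count divided by the library's count and scaled to a fixed total. All 11 hippocampal and brain cell markers examined had reads in every library. Slc6a4, the label check, was at 12.8 to 17 CPM in libraries labelled 5-Htt+/- and at 0 to 0.262 CPM in those labelled 5-Htt+/+. Reads of this gene were thus higher in the libraries labelled with the inactivated copy. The ranges of the labels did not overlap, but this direction does not bear out which label carries the inactivated copy. The cause was not tested, and genotypes are given as labelled throughout. The 169 pairs of libraries within groups all differed by more than sampling noise (smallest chi-square per gene 2.69).

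Gm10800 had 259 reads in all 48 libraries together. Its counts were 73 and 86 in 5-Htt+/+ SU replicates 3 and 6, 24 and 50 in 5-Htt+/- C replicates 2 and 3, and 22 in 5-Htt+/- SU replicate 3. These 5 libraries held 98.5% of its reads. Of the other 43, 5-Htt+/+ SA replicate 4 had 2 reads, 5-Htt+/+ SA replicate 3 and 5-Htt+/- SA replicate 4 had 1 each, and 40 had none. The lowest of the 5 stood 11 times above the highest of the rest. In whole tissue, more RNA per cell and more cells with the RNA cannot be told apart.

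Gm10801 had 596 reads. In the same order of libraries its counts were 136, 214, 36, 109 and 67, together 94.3% of its reads. It was the only member with a thin spread of reads elsewhere: 24 of the 43 other libraries held the remaining 34 reads, none with more than 3. The lowest of the 5 stood 12 times above that.

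Gm26870 had 1476 reads, the most of the 3. Its counts in the 5 libraries were 270, 610, 109, 232 and 207, together 96.7% of its reads. It was at 0 in 37 libraries, among them all 16 of the 5-Htt+/+ C and SA groups. Elsewhere, 5-Htt+/+ SU replicate 8 had 26 reads and replicate 2 of that group had 9, and in the labelled 5-Htt+/- libraries SU replicate 1 had 5, SA replicate 5 had 4, C replicate 5 had 3 and C replicate 4 had 1. The 26 reads in 5-Htt+/+ SU replicate 8 came with 0 reads of Gm10800. Per kilobase of annotated exon the order was another: Gm10801 had 1183 reads per kb over all libraries, Gm26870 548 and Gm10800 392.

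The 5 carrying libraries, defined here as those with more than 20 reads of each gene, thus held 2245 of 2331 reads of the 3 genes (96.3%). The largest amount, in 5-Htt+/+ SU replicate 6, was 54.8 CPM of the total count. Scaled to library size, Gm26870 reached 36.6 CPM there, followed by 13.1 CPM in replicate 3 of the same group, and Gm10801 reached 12.8 CPM and Gm10800 5.16 CPM in replicate 6. With 2 carrying libraries in 5-Htt+/+ SU, 2 in 5-Htt+/- C, 1 in 5-Htt+/- SU and 0 in the other 3 groups, every group that had any also had at least 5 libraries without. Each group had libraries at 0 reads of each gene, so that the groups overlapped for all 3.

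**Figure D2:**
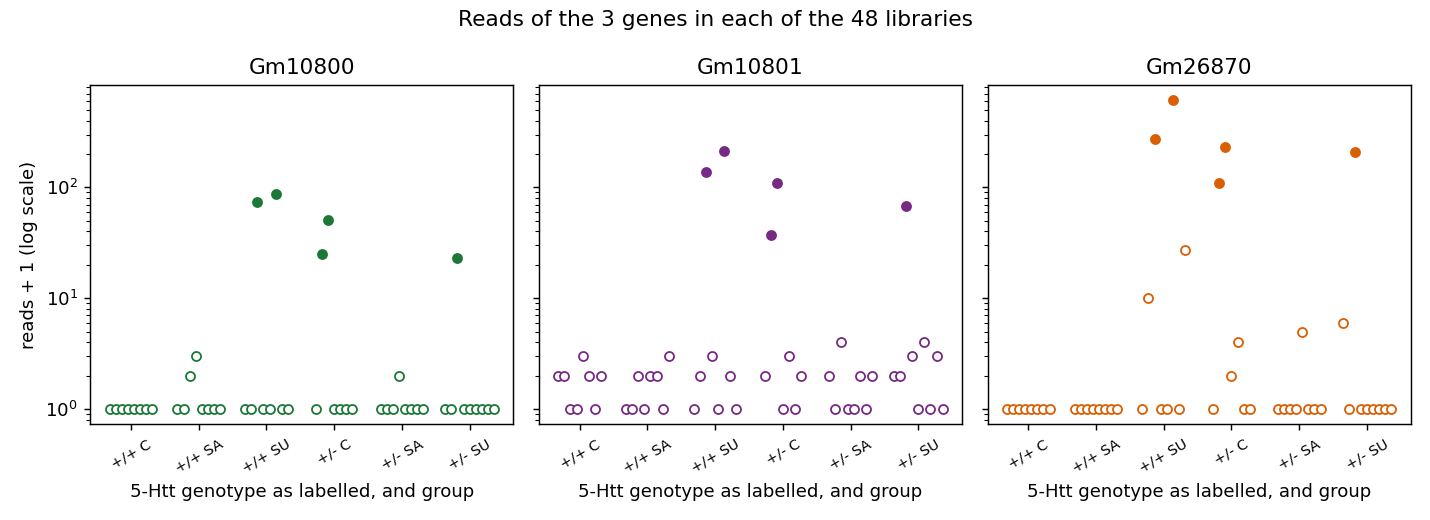
Reads plus 1 on a log axis for each of the 48 libraries (points), by labelled 5-Htt genotype and group, 1 panel per gene. Filled points are the 5 libraries with more than 20 reads of each gene. They lie at 22 to 86 reads of Gm10800, 36 to 214 of Gm10801 and 109 to 610 of Gm26870, and the open points reach at most 2, 3 and 26 reads.

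The 3 genes took similar but not identical shares of these reads from library to library. Gm26870 made up 56.4% to 69.9%, Gm10801 21.3% to 28.4% and Gm10800 7.43% to 15.2%. In 5-Htt+/+ SU replicate 3, Gm26870 made up 270 of 479 reads (95% Wilson interval 51.9% to 60.7%). In 5-Htt+/- SU replicate 3 it made up 207 of 296 (64.5% to 74.9%), so that these intervals do not overlap. Gm10800 made up 15.2% in the former (12.3% to 18.7%) and 7.43% in the latter (4.96% to 11%). For Gm10801, the intervals of all 5 libraries overlapped. Intervals cover counting error only, since reads without molecular identifiers are not independent molecules.

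**Figure D3:**
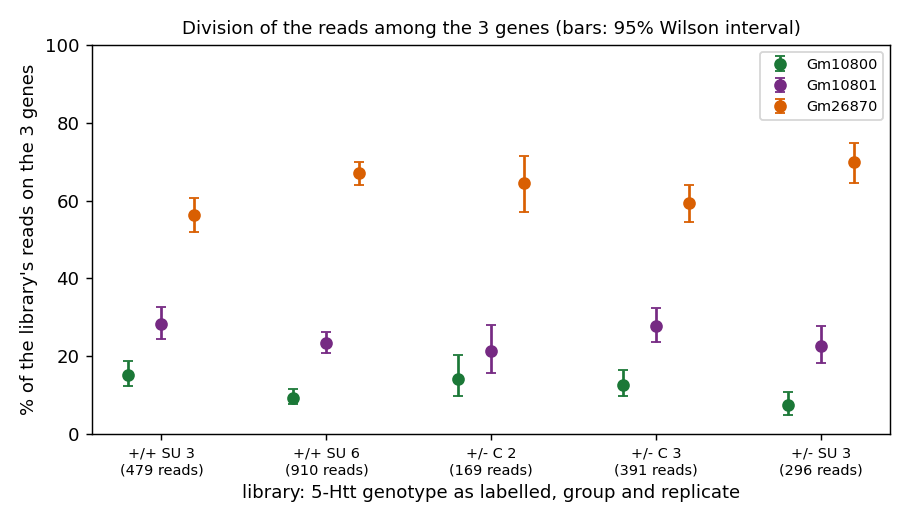
Share of each gene, in percent, among the reads of the 3 genes (vertical axis) in each of the 5 carrying libraries (horizontal axis), with 95% Wilson intervals as bars. Gm26870 is the largest share in all 5 libraries (56.4% to 69.9%) and Gm10800 the smallest (7.43% to 15.2%).

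Over all 48 libraries the log2 CPM of Gm10800 and Gm10801 had a Pearson's r of 0.96, Gm10800 and Gm26870 of 0.94, and Gm10801 and Gm26870 of 0.92. These values describe the gap between 5 libraries and the rest. Over the other 43 libraries, r was -0.16, -0.09 and -0.14 in the same order. Gm10800 had 4 reads in these 43, Gm10801 34 and Gm26870 48. With so few reads, these values cannot show whether the genes vary together there. The 48 libraries share no reads, but the 3 genes share sequence, so that their counts in a library are not separate measurements.

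The 5 libraries were examined for other measures in which they stand together. Their total counts lay low, at ranks 37, 38, 43, 44 and 46 from the highest of 48, and their numbers of genes with a read at ranks 31 to 47. The share of mitochondrial reads was spread from rank 11 to rank 48, and that of ribosomal RNA-like rows from rank 2 to rank 41. Of the marker lists of other tissues, haemoglobin and other red cell genes (5 rows) were at ranks 1 to 44, choroid plexus genes (12 rows) at 24 to 44, pituitary hormone genes (4 rows) at 25 to 48 and thalamus genes (4 rows) at 2 to 45. Small nucleolar RNAs were at ranks 1 to 44 and olfactory receptor genes, a measure of stray reads, at 3 to 45. The part of the lower total count in the reads of the 3 genes was not tested.

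Few or no reads in these libraries were counted for other annotated copies of the repeat. Whether those copies were transcribed was not tested. Gm26870 shares 67% of its 50-base windows with other annotated genes. Of its exon bases, 54.6% lie inside exons of the plus-strand genes over it. The counts of such genes therefore depend on how shared and overlapping reads were assigned, which is not known. A list of 12 predicted genes in satellite-like regions had 11 rows in the table, with 37 reads in all 48 libraries and 2 in the 5. Gm10799 had 21 of them, although it shares no window of 50 bases with the 3 genes, and Gm21738 had 9, of which 1 was in the 5 libraries, Gm10717 3 and Gm10715 2. The 9 plus-strand genes that lie over Gm26870 had 7 reads together, 0 of them in the 5 libraries, and 5 of the 9 had none in any library. The nearest other rows with reads were Gm13806 on chromosome 2 with 4 reads, the microRNA gene Mir101c beside Gm26870 with 3, all in 2 of the 5 libraries, and 4930433N12Rik on chromosome 9 with 833. 4930433N12Rik had reads in all 48 libraries and, in the order used above, 24, 10, 17, 16 and 13 in the 5.

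Outside the repeat, 2 rows had their 5 highest shares of the library in exactly these 5 libraries, among 43024 rows with at least 5 reads. They were chosen after their values were seen. Gm14216, a long intergenic non-coding RNA (chr2:154722352-154738451, minus strand), had 2307, 3803, 1368, 1462 and 1149 reads, or 59.9 to 229 CPM of the total count, while the highest of the other 43 was at 34.2 and their median at 1.23. The order of the 5 libraries by Gm14216 was that by the summed CPM of the 3 genes, with 5-Htt+/+ SU replicates 6 and 3 first and 5-Htt+/- C replicate 3 next, apart from the last 2. Gm12976, a long intergenic non-coding RNA on chromosome 4 (chr4:129261965-129265010, plus strand), had 14, 41, 12, 12 and 17 reads, or 0.579 to 2.47 CPM against at most 0.517 elsewhere. The highest count of Gm12976 elsewhere was 16 reads, above the 14, 12 and 12, so that this gap rests on few reads and on library size. Neither gene has a 50-base window in common with the 3 repeat genes. Gm14216 did not follow the 3 genes below this range: 9 of the other 43 libraries had more than 10 CPM of it and 9 reads of the 3 genes together, while 5-Htt+/+ SU replicate 8, with 26 reads of Gm26870, had 0.871 CPM of Gm14216.

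**Figure D4:**
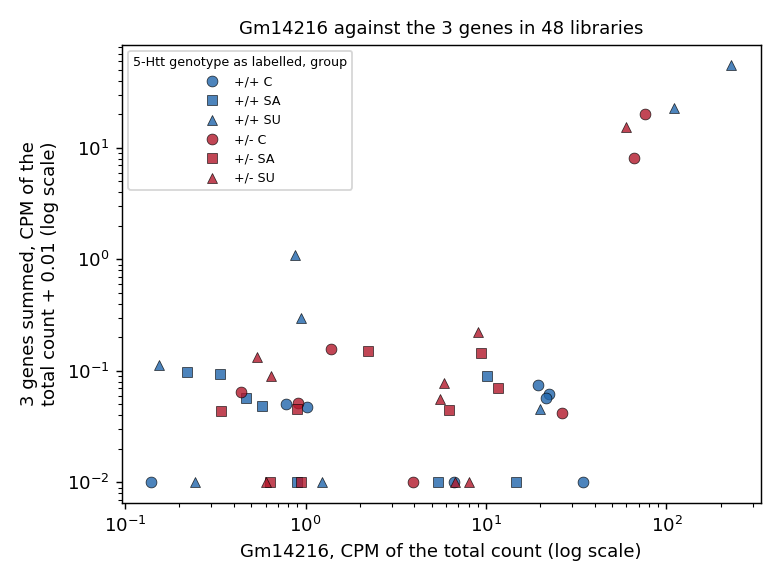
CPM of the total count of Gm14216 (horizontal, log axis) against the summed CPM of the 3 genes plus 0.01 (vertical, log axis) in each of the 48 libraries, with colour for the labelled 5-Htt genotype and symbol for the group. The 5 carrying libraries lie at 59.9 to 229 on the horizontal axis, apart from the other 43, which reach at most 34.2.

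By Pearson's r of log2 CPM over the 48 libraries, among 26505 genes with a mean of at least 5 reads, the 3 genes most like each member were the same: Wnt11, a secreted signalling protein, Gm12976 and 5330417C22Rik, with r between 0.59 and 0.68. Wnt11 had 2.14 to 6.45 CPM of the total count in the 5 libraries and at most 2.78 elsewhere. For 5330417C22Rik these values were 39.7 to 59.9 and 46.8, so that neither gene set all 5 libraries apart. The r of each member follows the same gap between the 5 libraries and the rest. The like lists of the 3 members are therefore not separate results. By Spearman's rho, the measure set for naming genes, the most similar were Mir5107, Gm12319, Gm44895, Gm15853 and Gm23638 for Gm10800 (rho 0.52 to 0.56), Gm23054, Efna4, Ccdc33, Ncf4 and Gm43621 for Gm10801 (0.51 to 0.55) and Abcc2, Gm3252, Mir5107, Igf2bp2 and Gm16243 for Gm26870 (0.45 to 0.53). With 40 and 37 libraries at 0 reads of Gm10800 and Gm26870, these ranks order mostly ties, and such values in sparse counts are no finding.

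Group comparisons of the 3 genes were read from a fit over all 31208 genes that passed the filter, with edgeR's quasi-likelihood test and Benjamini-Hochberg adjustment over all of them. The 3 genes passed the filter of 5 reads in 3 libraries with 5, 5 and 8 such libraries. Since the members were chosen with these results known, their values describe how a few libraries enter each contrast. Contrasts of 1 genotype share their control or SU libraries and are not independent. The 3 genes share sequence and the same carrying libraries, so that a threshold passed by all 3 is not 3 separate results.

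In SU against C offspring labelled 5-Htt+/+, all 3 genes had higher fitted levels, and 1 of the 3, Gm10801, passed the adjusted threshold, where 0.0192% of all genes did. Gm10801 was at 0.0303 ± 0.0264 CPM (SD, n = 8) in C and at 2.45 ± 4.78 CPM (n = 8) in SU. The median of SU was 0.0321 CPM, and 2 of 8 SU libraries were above 2 reads, the highest count in C. The level in C and the median of SU thus lie under 3 reads and cannot be told from 0. The log2 fold change was 5.93 with an SE of 1.19 (adjusted p = 0.0272). Every SE given here is the absolute log2 fold change divided by the square root of the F statistic of its test. It was not estimated by the fit and adds nothing to the p-value. Gm10801 was the only one of the 6 genes called in this contrast that was higher in SU, and the 5 others were lower. The summed reads of the groups, 354 against 6, differed 66.7-fold (exact interval 30.3 to 183, counting error only), and 28.9-fold without SU replicate 6. Gm26870 had the largest fitted log2 fold change of all genes in this contrast, 10.11 with an SE of 2.47, and was not called (adjusted p = 0.466). With 915 reads against 0, its summed level in SU was at least 345-fold higher against 3 reads over the C group, and at least 126-fold without SU replicate 6. Gm10800 had a log2 fold change of 7.45 with an SE of 2.01 (adjusted p = 0.892) and was at least 59.9-fold higher by the same floor, with 159 reads against 0. This bound was 30.1-fold without SU replicate 6 and 36.4-fold without replicate 3. Fitted changes of genes without a read in a group depend on the prior count and are no bound. At an unadjusted p under 0.05, all 3 members and 3.37% of all genes passed.

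The call of Gm10801 rested on these libraries. Without 5-Htt+/+ SU replicate 6 the log2 fold change was 4.67 (adjusted p = 0.962), and without replicate 3 it was 5.41 (adjusted p = 0.232). It also passed no longer when any 1 of 6 of the 8 control libraries was left out (adjusted p 0.0508 to 0.133), with the robust form of the fit (0.0519), the likelihood ratio test (0.648) or DESeq2 (0.342). Without all 5 carrying libraries, an alternative added after the data were seen, Gm10800 and Gm10801 had too few reads to be tested. Gm26870 then had a log2 fold change of 5.58 with an SE of 1.31 (adjusted p = 0.35), from 35 reads in 2 of 6 SU libraries against 0 in C.

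DESeq2 called other members than edgeR did. In SU against C labelled 5-Htt+/+ it called Gm26870 (adjusted p = 3.01e-09) and Gm10800 (adjusted p = 0.000749) and not Gm10801, where it called 3 genes in all (0.00961%). In SA against SU labelled 5-Htt+/+ it called Gm26870 alone of all genes (adjusted p = 3.78e-09; 0.0032%). In these contrasts 1 group had no read of Gm26870 at all, and C had none of Gm10800. The fitted log2 fold changes were 25.56, 23.05 and -25.46, which are no bounds. In the contrasts against C labelled 5-Htt+/-, where DESeq2 called 0.107% of 23342 genes with an adjusted p for SA and 1.51% of 16082 for SU, no member was called, though 4 of the 6 adjusted p-values were not given by the tool. None of the members' counts was replaced as an outlier by DESeq2.

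In SA against SU offspring labelled 5-Htt+/+, the 3 genes were lower in SA in the fit and none was called, as for every other gene (0%). Gm10801 had the smallest p of all genes (log2 fold change -5.97, SE 1.26, adjusted p = 0.27), with 5 reads in SA and 354 in SU. Gm26870 had the largest absolute fitted change of all genes (-10.11, SE 2.59, adjusted p = 0.999), with 0 reads in SA, and Gm10800 had -5.36 (SE 1.62, adjusted p = 0.999). At an unadjusted p under 0.05, all 3 members and 3.9% of all genes passed.

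In SA against C offspring labelled 5-Htt+/-, the direction against controls was the opposite one, since 2 control libraries carried the reads and no SA library did. None of the 3 was called, against 0.0288% of all genes. The log2 fold change was -6.46 (SE 2.48, adjusted p = 0.345) for Gm26870, again the largest absolute value of all genes, -5.49 (SE 2.2, adjusted p = 0.358) for Gm10800 and -4.72 (SE 1.48, adjusted p = 0.263) for Gm10801. The 3 genes had 4, 1 and 6 reads in SA and 345, 74 and 149 in C. Unadjusted, all 3 were under 0.05, as were 12.1% of all genes.

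In SU against C offspring labelled 5-Htt+/-, both groups held carrying libraries, and the values were -1.11 (SE 1.16) for Gm26870, -2.10 (SE 1.30) for Gm10800 and -1.37 (SE 0.87) for Gm10801, with adjusted p of 0.655, 0.424 and 0.435. None was called, where 0.016% of all genes were. Without 5-Htt+/- C replicate 3 the values of Gm10801 and Gm26870 were 0.37 each. In SA against SU labelled 5-Htt+/-, where 0% of all genes were called, the values were -5.35, -3.39 and -3.36 in the order Gm26870, Gm10800, Gm10801 (adjusted p = 0.9995 for each). Unadjusted, 0 of 3 members and 3.79% of all genes were under 0.05. The value of Gm10800 was 0.97 without 5-Htt+/- SU replicate 3. In SA against C labelled 5-Htt+/+, where 0.0128% of all genes were called, no carrying library took part: Gm10801 had -0.04 (SE 3.15), Gm10800, with 3 reads against 0, had 2.09 (SE 3.98), and Gm26870 had no read in either group. None was called, and unadjusted none of them and 3.07% of all genes were under 0.05. In the three-way contrast, the SA against SU difference in 5-Htt+/+ minus that in 5-Htt+/-, 0% of all genes and none of the 3 were called, with values of -4.77 (SE 10.4) for Gm26870, -1.97 (SE 10.8) for Gm10800 and -2.61 (SE 3.88) for Gm10801. Unadjusted, 3.7% of all genes were under 0.05 there and 0 of the 3.

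**Figure D5:**
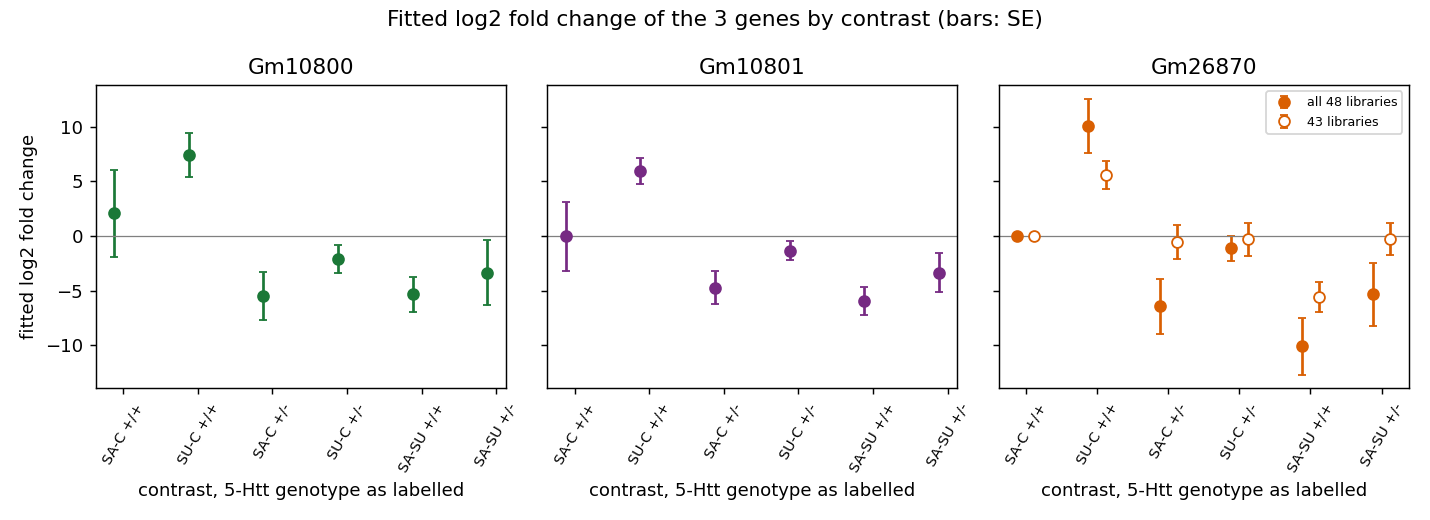
Fitted log2 fold change of each gene in the 6 pairwise contrasts, with bars for the SE derived from the F statistic. Filled points are from all 48 libraries. Open points, for Gm26870, are without the 5 carrying libraries, after which Gm10800 and Gm10801 could not be tested. Gm26870 moves from 10.11 to 5.58 in SU against C labelled 5-Htt+/+ and from -6.46 to -0.54 in SA against C labelled 5-Htt+/-.

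The effect of the 3 rows on the rest of the table was small. In the fit, 1 of the 21 values of the 3 genes in 7 contrasts was called, among 24 calls over all genes and contrasts. With the 3 rows removed before scaling, 23 calls were left and no library's scaled size changed by more than 0.136%. The genewise dispersion, a measure of scatter between libraries of 1 group, had a median of 0.0157 over all genes. It was 10.1 for Gm10800, at rank 4 of 31208 genes, 8.59 for Gm26870, at rank 7, and 3.42 for Gm10801, at rank 147. The 3 genes were chosen for such scatter, so that these ranks restate the choice.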

How the data were processed

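RNA was sequenced from the hippocampi of 48 mice, with 1 library per mouse and single-end reads of 50 bases. The values deposited by the authors are whole-number counts of reads, without normalisation or a filter, for 48440 genes. STAR for alignment, HTSeq, DESeq2 and the build GRCm38.p5 are named in the submitters' processing notes, whereas the methods of the study name STAR and Salmon. Their versions, the strand setting and what was done with reads that match several places are not given in the sources of this work. These settings decide how reads of repeated sequence are counted.

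The 3 genes were matched by name, and groups were taken from the labels. The labels of the count columns read Wt, susceptible and resilient, taken here as 5-Htt+/+, SA and SU. The filter kept the 31208 genes that reached 5 reads in 3 or more libraries, which were fitted in R 4.3.3 with edgeR 4.0.16, upper quartile scaling, a mean per group and quasi-likelihood tests of 7 contrasts, with Benjamini-Hochberg adjustment over all genes and a threshold of 0.05. The deposited table was also fitted with DESeq2 1.42.0. The script for the edgeR fit was tested on simulated data, and that for the DESeq2 fit was not. All libraries of a group were changed alike there, so that genes with reads in few libraries of a group were not covered. CPM values are relative to the scaled library size, log2 CPM uses a prior count of 2, and CPM of the total count is relative to the unscaled count. Transcript sequences and exons came from GENCODE vM21 (GRCm38), whose identifiers and positions match those of the table for the 3 genes. The stretches printed are the longest for which the best ungapped placements in the longest exon of each gene were at least 90% identical in every pair.

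The planned rule for naming genes covered the 3 members, Slc6a4 and rows within 100000 bases of a member. It also covered the 5 genes of highest Spearman's rho per member and up to 4 genes of each list by summed count. Gm14216, Gm12976, Wnt11 and 5330417C22Rik fall outside this rule. They were named after their values were seen, Wnt11 and 5330417C22Rik from a ranking by Pearson's r that the rule did not set. The members, lists and tests were chosen with earlier results of these data known. Replicates are separate mice by their animal numbers, litters could not be modelled, and p-values may be too small where mice share a litter. Depth was 16488405 to 38213754 counts per library.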

Additional observations from a re-analysis of the deposited data

Results flagged for a closer look

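In 8 of the 15 pairs of gene and group whose libraries differed at all, 1 library stood apart from the others of its group by Dixon's criterion. The genes were selected on such scatter, so these values are a description. Chance meets the criterion in about 1 of 20 groups of independent, continuous values, a rate that does not hold for counts that are mostly 0. Of these, 5 were in carrying libraries: in 5-Htt+/- SU replicate 3, Gm10800 was at 1.16 CPM, Gm10801 at 3.54 CPM and Gm26870 at 10.9 CPM, where the next library had 0, 0.124 and 0.179 CPM, and in 5-Htt+/+ SU replicate 6 Gm26870 was at 36.6 CPM, where the next had 13.1 CPM. In 5-Htt+/- C replicate 3, Gm10801 was at 5.52 CPM, where replicate 2 had 1.72 CPM. The other 3 rest on 1 to 4 reads, all in SA libraries labelled 5-Htt+/-: Gm10800 at 0.0619 CPM in replicate 4, Gm10801 at 0.133 CPM in replicate 3 and Gm26870 at 0.138 CPM in replicate 5. Gm10800 in 5-Htt+/+ SU, where 2 libraries carried the reads, did not meet the criterion.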

How the results depend on the processing

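Of the 21 values of the 3 genes in 7 contrasts, 1 was called. It remained 1 with TMM scaling, relative log expression scaling, total counts without a factor and no filter on low counts. The number was 0 with the likelihood ratio test, the robust fit, the earlier quasi-likelihood form (added after the data were seen) and without the 5 carrying libraries, and 3 with DESeq2, with or without its handling of outliers. Leaving out each library in turn gave 0 to 3 calls: 0 without 5-Htt+/+ C replicates 3 to 8 or 5-Htt+/+ SU replicates 3 or 6, 2 without 5-Htt+/+ SU replicate 2, and 3 without 5-Htt+/- SU replicate 3, where Gm10801 in SA against SU (adjusted p = 0.0188) and Gm26870 in SU against C (adjusted p = 0.0185), both labelled 5-Htt+/+, were called too. Over all genes, 24 calls became 111 with the likelihood ratio test, 272 with DESeq2, 273 with DESeq2 without its handling of outliers, 14 with the earlier form, 16 without the 5 libraries and 17 with a filter of 10 reads in 7 libraries, which no member passed. Leaving out each library in turn gave 15 to 451 calls, 15 without 5-Htt+/- C replicate 1, 38 without replicate 6, 120 without replicate 2 and 451 without replicate 4 of that group, and 56 without 5-Htt+/- SU replicate 4. The cause was not tested. Among the log2 fold changes, the sign turned for 4 uncalled values when 1 library was left out: Gm10801 in SA against C labelled 5-Htt+/+ (-0.46 to 0.27, above 0 in 9 fits), Gm10801 and Gm26870 in SU against C labelled 5-Htt+/- (-4.21 and -6.19 without SU replicate 3 to 0.37 each without C replicate 3), and Gm10800 in SA against SU labelled 5-Htt+/- (-4.37 to 0.97, the latter without SU replicate 3). Replicate numbers do not pair the libraries: the correlation of same-numbered libraries had a median of -0.001 over 115 pairs, and 8 of 48 libraries correlated best with their own number. With the replicate block, 2 values of the members were called (Gm10801 in SA against SU labelled 5-Htt+/+ in addition, adjusted p = 0.021) and 17 over all genes. Planned correlations with library measures, and their alternatives in scale and prior count, were not run, because the libraries fall into 5 with reads and 43 near 0. At this depth, fewer than 3 reads cannot be told from 0.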
